A study of Schizosaccharomyces pombe with 56 samples.

Results

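Membrane transporters move amino acids, peptides, sugars, vitamins, ions and other solutes across the plasma membrane, the vacuole and the mitochondrial membranes. In fission yeast (Schizosaccharomyces pombe), as in other fungi, many of them are permeases whose abundance follows the nutrients in the medium, and cells without nitrogen take up or recycle amino acids, peptides and polyamines. Dimethylation of histone H3 at lysine 9 (H3K9me2), laid down by the methyltransferase Clr4, marks silent heterochromatin at centromeres, chromosome ends and the mating-type region.

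The genes described here are the transporter genes outside the hexose (ght), ammonium (amt), siderophore (str) and phosphate (pho) families. They were taken as every nuclear protein-coding gene whose RefSeq product text holds the word transporter, leaving out symbols that start with those letters and isp4, isp5, tgp1 and fip1. The rule gave 161 of 5113 genes, and it used no measured value. Some genes so taken are not membrane transporters themselves but were kept. Among them are gti1, an inducer of gluconate transport, and nrf1 and vtc4, subunits of the vacuolar transporter chaperone complex. The text of csr102 names a cytosolic factor family, and that of fio1 names a copper oxidase beside a transporter.

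H3K9me2 was profiled by ChIP-seq in wild-type cells (strain 975 h+) after 24 h in EMM without nitrogen, in which cells become quiescent, and at 0 h, when they came from growth in supplemented EMM. The series lists 6 H3K9me2 libraries for each of these times, and the deposited comparison carries the digits 1, 3, 4, 5 and 6 in its name, so 5 libraries per time were assumed. The 1 h, clr4D, ago1D, H3K9me3 and input libraries were not analysed here. Cells of both times were cross-linked, and chromatin was precipitated with an antibody against H3K9me2. Nothing in the labels says whether replicates were separate cultures, so p-values may measure technical spread alone.

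The authors' deposited table holds 2192 regions, each with 1 mean per time on a log2 scale, given here as normalised reads, and with the authors' false discovery rate (FDR). It gives no depth for any library. No value lay below 0.77 normalised reads, the minimum of the table. If input reads were subtracted, which the sources used here do not give, a region at this minimum may have held more reads, so the words no signal mean here no value above the minimum. At the minimum, 151 regions stood at 24 h and 1154 at 0 h. A p of 1 was listed for 807 regions. Of the 1385 others, called tested here, 453 were higher and 10 lower at 24 h at an FDR of 0.05, and their median log2 change was 1.72.

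H3K9me2 was higher at 24 h over 22 of the 161 transporter genes and lower over 1, SPOM_SPAC6F6.04C. The 22 make up 13.7% of the transporter genes, beside 10.5% of all nuclear protein-coding genes, so the share was close to the background. Each value is a mean over many cells, in which more marked cells and more mark per cell cannot be told apart. The 1 decreased gene stands beside 0.196% of all genes. A further 33 transporter genes lay under tested regions that did not pass, 59 under regions listed with a p of 1 (background 21.9%), and 46 under no region. Some region therefore lay over 115 transporter genes, beside 54.8% of all genes, and these were 115 different regions.

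The 22 increased genes encode transporters of proline, cysteine, other amino acids, polyamines, glutathione, dipeptides, oligopeptides, sulfate, phosphate, purine nucleosides, a tricarboxylic acid, thiamine and biotin, transporters with no substrate in their text, and the regulator of gluconate transport gti1. Their regions had a median of 43.1 normalised reads at 24 h (range 9.12 to 236) and of 0.77 at 0 h (range 0.77 to 5.25) in the authors' deposited table. At 0 h, 19 of the 22 stood at the minimum, beside 400 of the 453 increased regions of the whole table. Folds against that minimum are therefore given as lower bounds, computed against 3 counts per library, or 2.31 normalised reads, and they bound the deposited values only. Per kb of region the 22 had a median of 18.5 normalised reads at 24 h, against 22.2 over the 453 increased regions of the whole table.

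**Figure D1:**
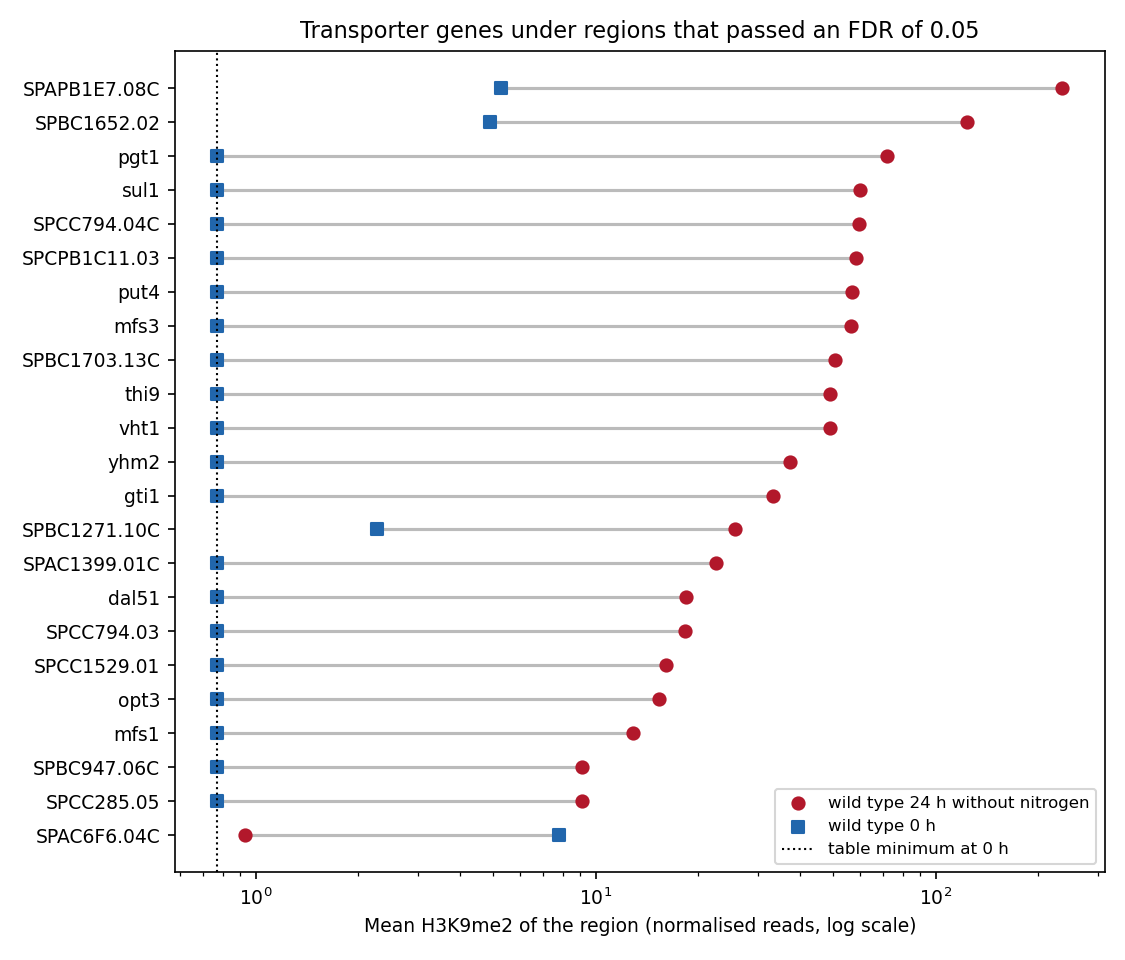
Mean H3K9me2 of the region over each transporter gene that passed an FDR of 0.05, in normalised reads on a log axis, with wild type at 24 h without nitrogen as red circles, wild type at 0 h as blue squares and the 0 h minimum of the table as a dotted line. The 22 increased genes lie between 9.12 and 236 at 24 h and 19 of them on the minimum at 0 h, while SPAC6F6.04C alone is lower at 24 h.

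Whole reads per library were recovered from the group means by an exact decomposition (tolerance 3e-14), as normalised reads above the minimum. The 3 libraries with signal at 24 h are called A, B and C here and the 2 with signal at 0 h A and B. None of them can be tied to a replicate number, and the remaining 2 libraries at 24 h and 3 at 0 h had no recovered signal. Of the 22 increased regions, 14 had signal in 2 libraries at 24 h and 8 in 3 of the 5, and library A was the highest in 19. At 0 h, 19 had no signal in any library and 3 had signal in 1. Of the 451 increased regions of the whole table with a recovered make-up, 320 had signal in 2 libraries at 24 h and 131 in 3. In 380 of them library A was the highest, and 398 had no signal at 0 h. When limma was fitted to these recovered values with the empty libraries as 0, none of the 2174 regions passed an adjusted p of 0.05 (each increased transporter gene had an adjusted p of 0.611), and 73 regions passed an unadjusted p under 0.05. Of the 22 genes, SPOM_SPBC1703.13C, mfs3, vht1 and yhm2 lay under those 73 regions. The authors' test, on whose FDR the counts rest, gave an unadjusted p under 0.05 to 23 transporter genes that were higher at 24 h and 2 that were lower. The share of all genes at that unadjusted threshold was not computed, so these 2 counts have no background beside them.

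**Figure D2:**
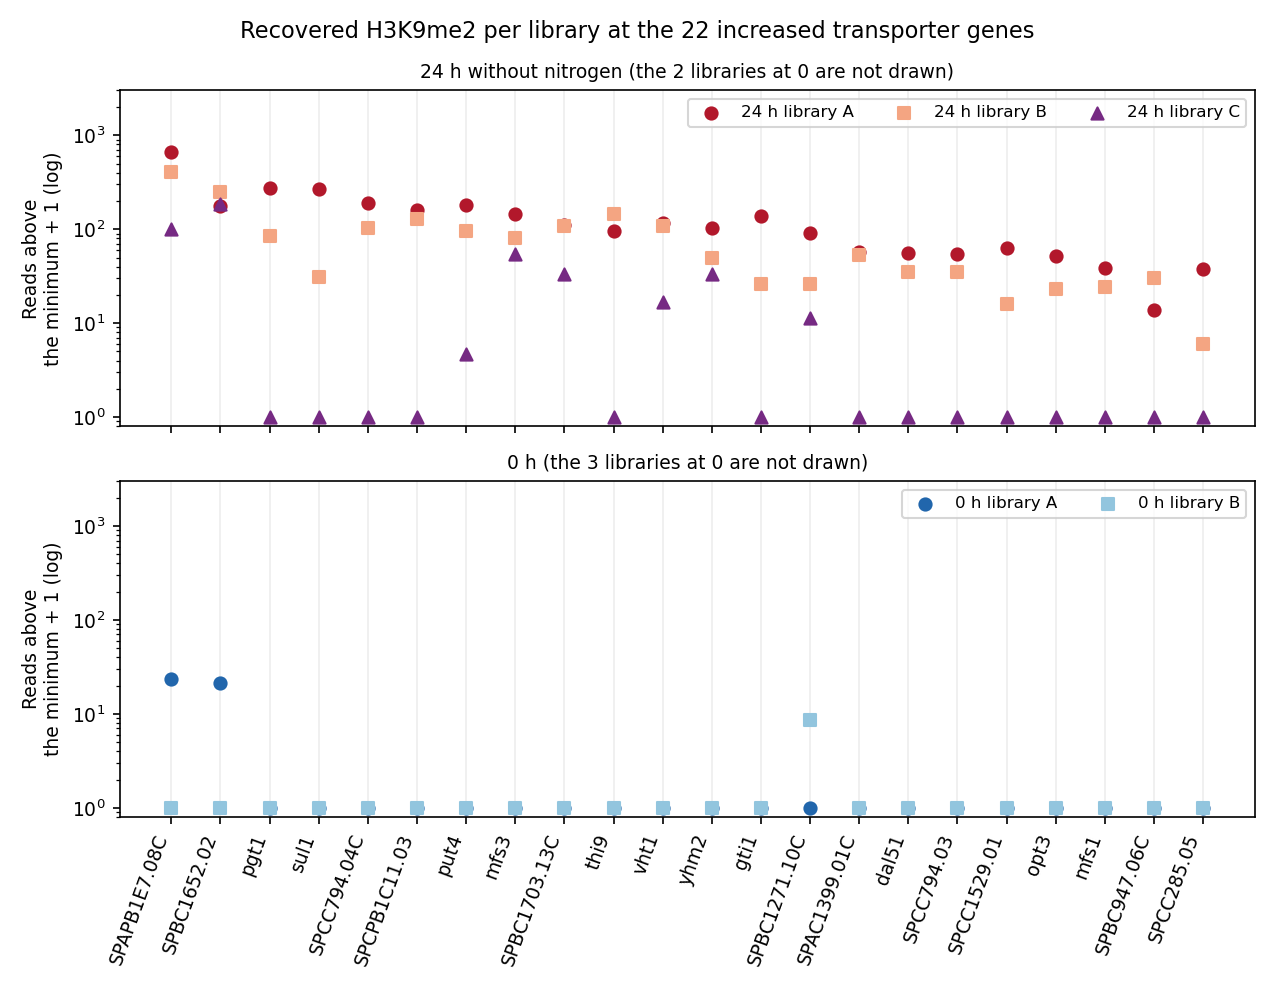
Recovered H3K9me2 of single libraries over the 22 increased transporter genes, as normalised reads above the minimum plus 1 on a log axis, with 24 h above and 0 h below. Library A (red circles) is the highest at 24 h for 19 genes, library C (triangles) has signal at 8, and at 0 h 3 genes have signal in 1 library.

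Among the 22 increased genes the highest region mean at 24 h, a value that also grows with the width of the region, lay over SPOM_SPAPB1E7.08C, a transporter whose substrate the text does not name. Its region on chromosome I, 3303699 to 3312011 (build ASM294v2), is 8313 bp wide and also covers glt1, the gene of glutamate synthase, so that its reads cannot be ascribed to either gene. In the authors' deposited table it had 236 normalised reads at 24 h, against 5.25 at 0 h, a log2 change of 5.49 (FDR = 0.00544). The 24 h libraries held 669, 408, 99.7, 0 and 0 recovered reads, against 22.4, 0, 0, 0 and 0 at 0 h. The 3 libraries with signal at 24 h all exceeded every 0 h library, while the 2 empty ones did not.

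SPOM_SPBC1652.02, a permease of the amino acid, polyamine and organocation (APC) superfamily, had 124 normalised reads at 24 h and 4.87 at 0 h in the authors' deposited table. Its log2 change was 4.67 (FDR = 0.0133). Its region, chromosome II 4256443 to 4258359, covers no other protein-coding gene. Per kb of region it had the highest 24 h level of the 22, 64.5 normalised reads. The 24 h libraries held 177, 250, 187, 0 and 0 recovered reads, and 1 library at 0 h held 20.5. Here the 3 libraries with signal were closer to each other than at SPOM_SPAPB1E7.08C, where library A was the highest.

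Among the remaining amino acid and polyamine transporters, put4, which takes up proline, had 56.8 normalised reads at 24 h and the minimum at 0 h in the authors' deposited table, at least 24.6-fold higher (FDR = 0.0013). Its 24 h libraries held 181, 95, 3.72, 0 and 0 recovered reads, and all 0 h libraries 0. SPOM_SPCPB1C11.03, annotated as a cysteine transporter, was at least 25.2-fold higher at 24 h (FDR = 0.00166), with 160, 127, 0, 0 and 0 recovered reads. Its region of 3426 bp also covers xan1, which encodes a xanthine dioxygenase. The polyamine gene mfs3, of the spermidine transporter family, was at least 24.3-fold higher in the authors' deposited table (FDR = 0.000856), the lowest FDR among the transporter genes. Its 24 h libraries held 145, 79, 53.6, 0 and 0 recovered reads. SPOM_SPBC947.06C, of the same family, reached 9.13 normalised reads at 24 h, at least 3.95-fold higher (FDR = 0.0222), and it was 1 of the 3 genes at which library B, with 29 recovered reads, exceeded library A, with 12.8.

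Of the 24 amino acid and polyamine genes these 5 were increased, 3 were tested and did not pass, 11 lay under regions with a p of 1 and 5 under none. The tested genes with the most signal were SPOM_SPCC569.05C, of the spermidine family, with 51.3 normalised reads at 24 h and 12.0 at 0 h (FDR = 0.373), and SPOM_SPCC74.04, for gamma-aminobutyric acid or polyamines, with 35.5 at 24 h and 10.3 at 0 h (FDR = 0.443), by the authors' deposited table. At SPOM_SPCC569.05C a single 0 h library held 56.4 recovered reads, and the 24 h libraries held 98.2, 59, 95.2, 0 and 0. The 0 h library lay just below the lowest of the 3 libraries with signal at 24 h. The vacuolar amino acid transporters fnx1, fnx2, avt3, avt5 and atg22 lay under regions with a p of 1. Recovered 24 h signal lay in library A for 4 of these genes, and avt3 had none.

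Peptide and glutathione transporters gave 3 increased genes of 9. The plasma membrane glutathione transporter gene pgt1 had 72.0 normalised reads at 24 h and the minimum at 0 h in the authors' deposited table, at least 31.2-fold higher (FDR = 0.0013). This was the largest lower bound among the 22 increased genes, over a region of 5421 bp that also covers clr5. Library A held 273 of its recovered reads, library B 83 and the other 24 h libraries 0. The dipeptide transporter gene dal51 was at least 7.98-fold higher (FDR = 0.00728) and the oligopeptide transporter gene opt3 at least 6.67-fold (FDR = 0.00964) in the authors' deposited table, each with recovered signal in libraries A and B only. The vacuolar ABC transporters for phytochelatins and glutathione conjugates, abc2 and abc4, were tested and did not pass. The first had 37.5 normalised reads at 24 h and 42.7 at 0 h (FDR = 0.988), and abc4 had 32.1 at 24 h and 42.2 at 0 h (FDR = 0.988), by the authors' deposited table. Both had signal in library A at 24 h and in both libraries with signal at 0 h.

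Anion transporters gave 2 increased genes of 6. In the authors' deposited table the sulfate transporter gene sul1 had 59.8 normalised reads at 24 h and the minimum at 0 h, a rise of at least 25.9-fold (FDR = 0.00187). Library A held 265 of its recovered reads and library B 30, and the region of 6002 bp also covers kgd1, which encodes a subunit of 2-oxoglutarate dehydrogenase. SPOM_SPBC1703.13C, annotated as an inorganic phosphate transporter but named outside the pho family, was at least 21.9-fold higher in the authors' deposited table (FDR = 0.00102). Libraries A and B were nearly equal there, with 109 and 108 recovered reads, and C held 32.7. Another sulfate transporter gene, sul2, was lower at 24 h and did not pass. It had 2.57 normalised reads at 24 h and 22.1 at 0 h in the authors' deposited table. Its log2 change was -3.10 (FDR = 0.0895). Its 24 h libraries held 0, 9, 0, 0 and 0 recovered reads, against 48.1, 58.4, 0, 0 and 0 at 0 h.

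Vitamin and cofactor transporters gave 3 increased genes of 17, and 9 of the class lay under no region. The thiamine transporter gene thi9 had 49.0 normalised reads at 24 h and the biotin transporter gene vht1 48.8, at least 21.2-fold and 21.1-fold higher than at 0 h in the authors' deposited table (FDR = 0.00201 and 0.0013). Library B exceeded A at thi9, with 146 against 95 recovered reads, and vht1 had 117, 108 and 15.6 in A, B and C. SPOM_SPCC794.03, a second gene annotated for thiamine, was at least 7.91-fold higher (FDR = 0.00738) in the authors' deposited table. SPOM_SPAC1B3.15C, a second gene annotated for biotin, is the transporter gene nearest to vht1 along chromosome I. It had 23.3 normalised reads at 24 h and the minimum at 0 h in that table with a p of 1, and 109 recovered reads in library A beside 4 in B. The tested gene with the most signal was SPOM_SPCC965.13, of the pyridoxal family, with 46.9 normalised reads at 24 h and 10.4 at 0 h in the authors' deposited table (FDR = 0.342).

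One gene each was increased among 9 sugar, 5 nucleobase and 11 organic acid transporters. The gluconate transport inducer gene gti1 was at least 14.4-fold higher (FDR = 0.00382), SPOM_SPCC285.05, for purine nucleosides, at least 3.95-fold (FDR = 0.0243), and yhm2 at least 16.2-fold (FDR = 0.00166), by the authors' deposited table. In budding yeast Yhm2 is a mitochondrial carrier of citrate and oxoglutarate. Its region held 101, 49 and 32.7 recovered reads in libraries A, B and C, whereas SPOM_SPCC285.05 held 36.7 and 5 in A and B and gti1 137 and 25. Tested genes that did not pass included fur4, the uracil transporter, with 34.0 normalised reads at 24 h and 6.02 at 0 h (FDR = 0.251), and the inositol transporter gene itr1, with 26.6 at 24 h and 10.5 at 0 h (FDR = 0.644), in the authors' deposited table. The Golgi UDP-galactose transporter gene gms1, gms2 and SPOM_SPBC21B10.09, for acetyl-CoA, stood at the minimum at both times. SPOM_SPAC29B12.14C, for purines, had 5.88 normalised reads at 24 h and 9.87 at 0 h (FDR = 0.827) and the acetate transporter gene mug86 2.33 at 24 h and the minimum at 0 h (FDR = 0.309), by the authors' deposited table. The only lipid gene, csr102, for phosphatidylinositol, had 20.4 at 24 h and 25.8 at 0 h there (FDR = 0.988).

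Metal ion transporters were the second largest class, and 0 of 25 lay under an increased region, beside 10.5% of all nuclear protein-coding genes. Of the 25, 8 were tested and did not pass, 8 lay under regions with a p of 1 and 9 under none. Whether the count of 0 increased genes differs from the other classes or from all genes was not tested. The count does not cover the siderophore genes str2 and str3 or the iron permease gene fip1, which the rule left out. In the authors' deposited table str3 (FDR = 0.00247) and str2 (lowest FDR 0.0032) lay under increased regions, and fip1 lay under no region. The tested region with the most normalised reads was that over SPOM_SPBC27B12.12C, a magnesium transporter of the CorA family, with 59.3 normalised reads at 24 h and 19.8 at 0 h in the authors' deposited table (FDR = 0.555). Its 24 h libraries held 225, 55, 12.6, 0 and 0 recovered reads, against 32.0, 63.1, 0, 0 and 0 at 0 h, so the groups overlapped. Next came pcl1, a vacuolar iron importer, with 22.2 normalised reads at 24 h and 4.17 at 0 h (FDR = 0.204) in the authors' deposited table, although per kb of region pcl1 was the higher at 24 h, with 33.7 against 24.8 normalised reads. At an unadjusted p under 0.05 the class also had none: the lowest FDR was 0.133, at ctr4, a subunit of the copper transporter.

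**Figure D3:**
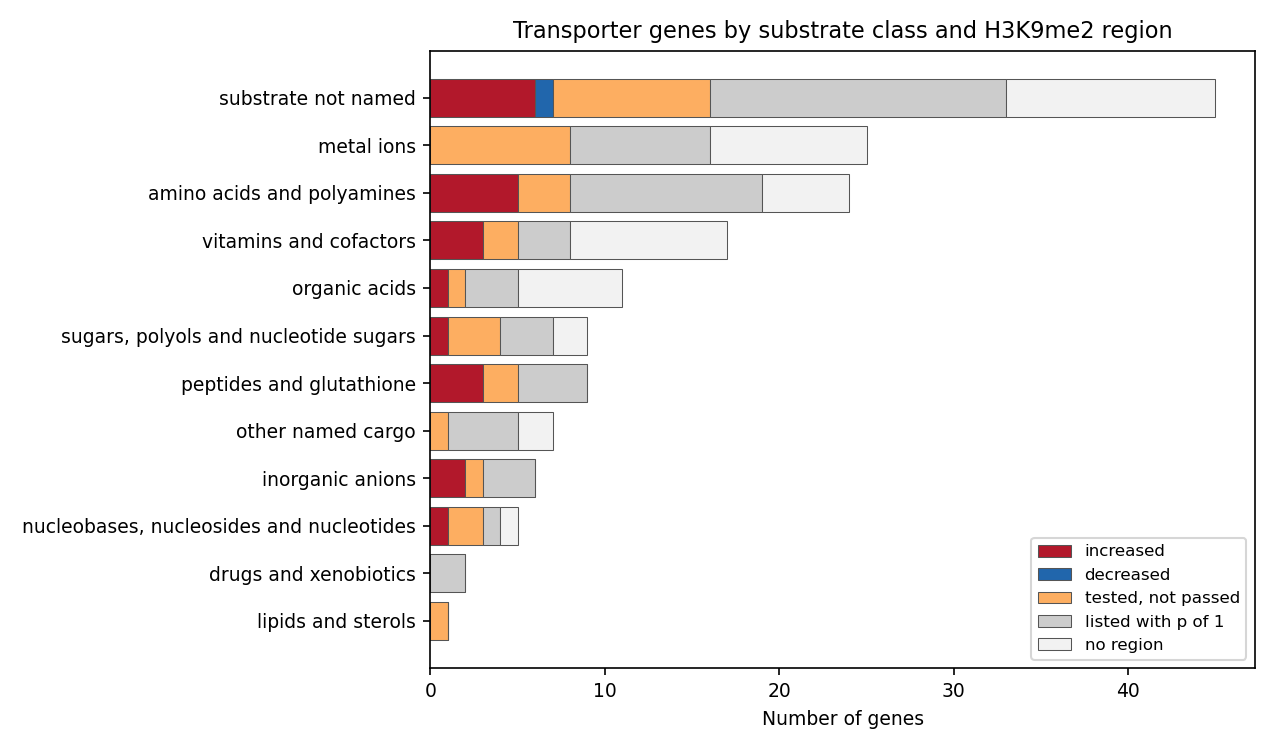
Number of transporter genes per substrate class, as the RefSeq text names it, split by the state of the H3K9me2 regions over them. Increased genes (dark red) occur in 8 of the 12 classes, with 5 of 24 for amino acids and polyamines and 0 of 25 for metal ions, beside 10.5% of all nuclear protein-coding genes. The left-out families, among them the siderophore genes str2 and str3 under increased regions, are not drawn. Differences between classes were not tested. Regions listed with a p of 1 are in grey and genes under no region in pale grey.

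No substrate is named for 45 genes, of which 6 were increased. Besides SPOM_SPAPB1E7.08C they were SPOM_SPCC794.04C, at least 25.7-fold higher at 24 h (FDR = 0.00166), SPOM_SPAC1399.01C, at least 9.75-fold (FDR = 0.00544), SPOM_SPCC1529.01, at least 6.96-fold (FDR = 0.00947), mfs1, of the major facilitator superfamily, at least 5.58-fold (FDR = 0.0125), and SPOM_SPBC1271.10C, by the authors' deposited table. The last had 25.7 normalised reads at 24 h and 2.28 at 0 h there, a log2 change of 3.50 (FDR = 0.0391), the increased value nearest the threshold. It held 89.4, 25, 10.4, 0 and 0 recovered reads at 24 h and 7.54 in 1 library at 0 h. With the authors' p adjusted over all listed regions, those with a p of 1 included, its adjusted p was 0.0618 and 21 increased genes remained.

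The decreased gene, SPOM_SPAC6F6.04C, also has no named substrate. Its region of 612 bp covers 28.8% of the gene. The authors' deposited table gave 0.93 normalised reads at 24 h and 7.79 at 0 h, a log2 change of -3.07 (FDR = 0.0406). Library A at 24 h held 0.80 recovered reads, the value of 1 read, and the other 24 h libraries 0, against 13.5, 21.7, 0, 0 and 0 at 0 h. The 24 h mean lies under 3 counts per library, so no fold is given. Adjusted over all listed regions its p was 0.0643.

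Heterochromatin regions, with over 1000 normalised reads at 0 h, covered 4 transporter genes. These were SPOM_SPAC750.02C, SPOM_SPBPB2B2.16C and SPOM_SPBC1348.05 near chromosome ends and the urea transporter gene SPOM_SPBC23G7.13C beside the mating-type locus mat1. The region over SPOM_SPAC750.02C had 18495 normalised reads at 24 h and 40053 at 0 h in the authors' deposited table. It spanned 54685 bp with 16 further protein-coding genes. All of the 4 were lower at 24 h, with log2 changes of -0.92 to -1.74, and none passed (lowest FDR 0.176). The 3 genes near the ends are near-identical copies of each other, and their reads may have been assigned to any of them, so the reads of these genes are uncertain. No increased gene had such a copy, even at 80% identity. The values given are those of whole regions, of which SPOM_SPAC750.02C made up 2.67% and SPOM_SPBC1348.05 9.82%. Whether the rest of these regions has copies elsewhere was not examined.

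Over the 56 tested transporter regions the median log2 change in the authors' deposited table was 2.14, against 1.72 over the 1385 tested regions of the table. Of the 56, 42 were higher at 24 h by more than 0.01 on the log2 scale, beside 76.2% of all tested regions, 11 were lower and 3 stood at the minimum at both times. By the same rule, with those 3 counted as equal, 31 were higher when both times were scaled to the same median of tested regions and 46 when scaled to the same total. Library A moved this count. With recovered values for 52 regions, 42 were higher at 24 h, and 30 without library A. Among the 22 increased genes the lowest log2 change was 1.39 without library A. For the 19 of them at the 0 h minimum, which had signal in at least 2 libraries at 24 h, leaving out 1 library could not turn the direction.

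Single-library signal was the common make-up of the 59 genes under regions with a p of 1. Of their regions 42 had recovered 24 h signal in library A only, against 679 of 806 such regions with a recovered make-up in the whole table. The highest was SPOM_SPBPB8B6.02C, a urea transporter gene, with 113 normalised reads at 24 h and the minimum at 0 h in the authors' deposited table, over 6368 bp that also cover grt1 and fah1. All 561 recovered reads were in library A, and the mean was 17.7 normalised reads per kb of region at 24 h. The brefeldin A exporter gene bfr1 had 249 recovered reads in library A and 0 elsewhere, and the leptomycin exporter gene pmd1 had 275, 12 and 5.95 in A, B and C, with 46.1 and 3.77 in 2 libraries at 0 h.

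**Figure D4:**
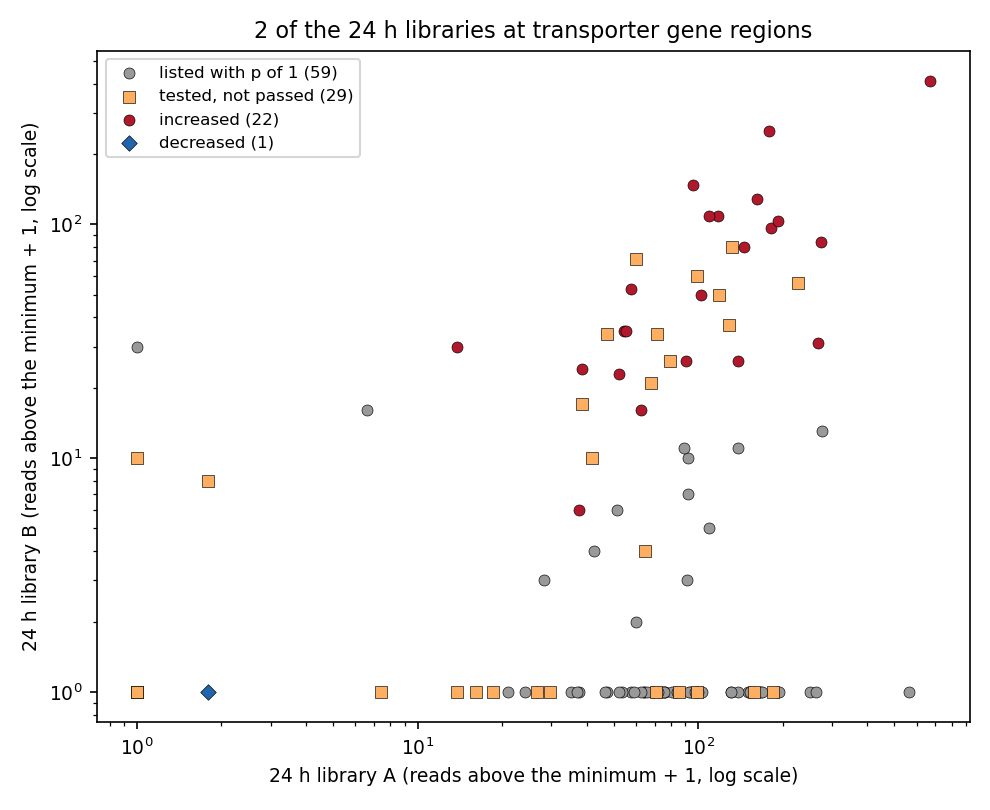
Recovered H3K9me2 of 24 h library B against 24 h library A for transporter regions with a recovered make-up, as normalised reads above the minimum plus 1 on log axes. The 22 increased regions (red) all have signal in both libraries, and most of the 59 regions with a p of 1 (grey) lie on the lower edge, with signal in library A only. The states come from the authors' test on the same libraries, so this split describes that test and is not particular to transporter genes. In the whole table, 0 of 451 increased regions with a recovered make-up had signal in 1 library only at 24 h.

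The position of the increased regions over the transporter genes was close to that over all increased genes. Of the 22, 17 held neither the start nor the end of the transporter gene (77.3%, beside 73.1% of all 535 increased protein-coding genes), 4 held the end and 1, over SPOM_SPCC794.04C, held the start (4.55%, beside 5.42%). The median share of the gene covered was 61.6%, against 61.8% over all increased genes. The region covered no other protein-coding gene for 18 of the 22 (81.8%, beside 66.5%). A convergent neighbour was annotated for 14 of them (63.6%, beside 54.8%) and an antisense long non-coding RNA for 20 (90.9%, beside 74.4%). Among the 139 other transporter genes these shares were 48.9% and 82.0%, so antisense RNAs were common over transporter genes whether increased or not. Strand cannot be read from ChIP-seq. The GC content of the 22 gene bodies had a median of 38.8%, against 37.1% for the tested transporter genes that did not pass and 36.6% for those under no region. The 535 increased genes had 39.0%, against 36.8% for all genes. Whether base composition has a part in which regions were listed was not tested.

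**Figure D5:**
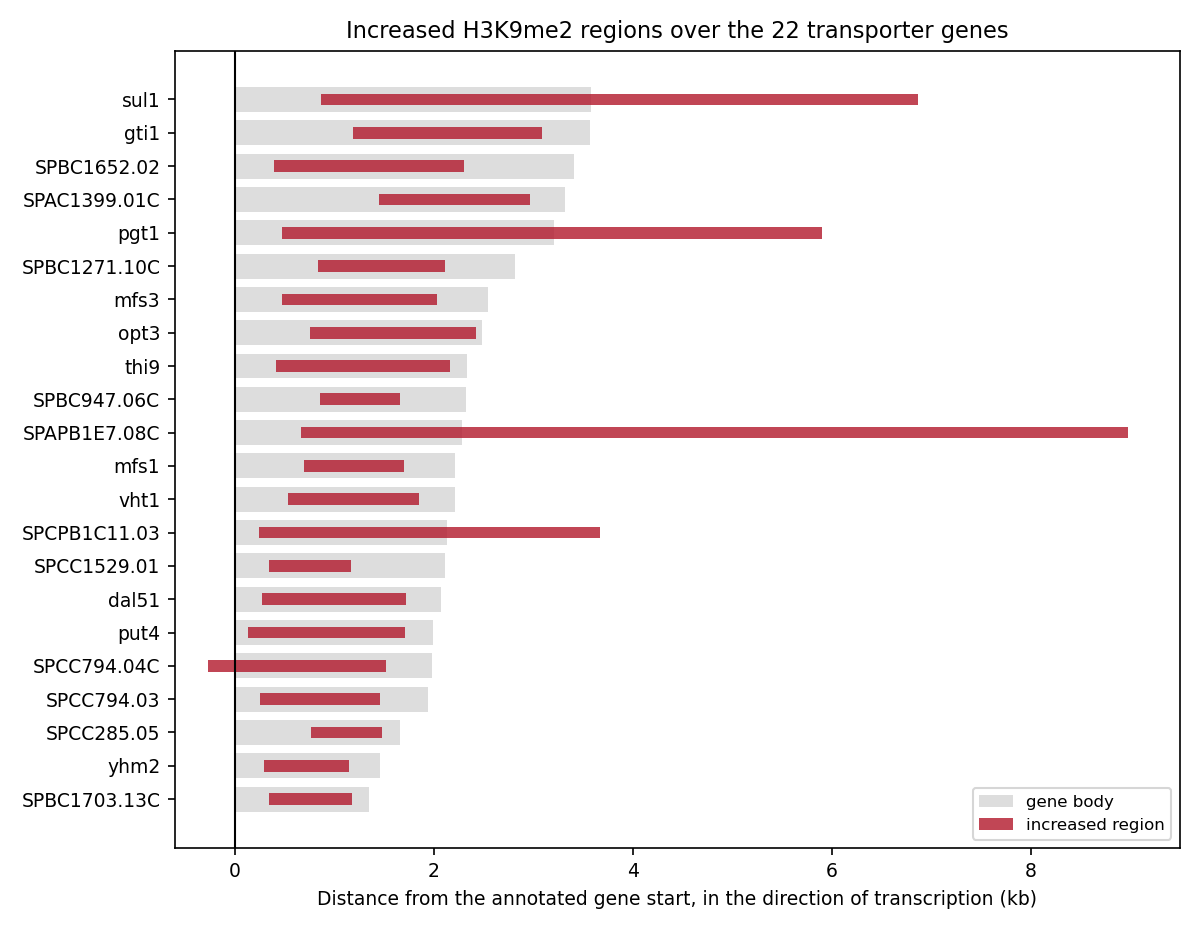
Gene bodies (grey) and increased H3K9me2 regions (red) of the 22 increased transporter genes, drawn by distance from the annotated gene start in kb along the direction of transcription. The region over SPCC794.04C alone crosses the start at 0, and 4 regions, those over SPAPB1E7.08C, sul1, pgt1 and SPCPB1C11.03, run past the gene end.

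Upstream sequences were read from the RefSeq assembly ASM294v3 to look for the letters GATAAG, which GATA transcription factors recognise, among them Gaf1, active in fission yeast without nitrogen. The letters were searched on both strands from 250 bases before to 50 after each annotated start. They occurred in 9 of the 22 increased genes (40.9%), 25 of the 139 other transporter genes (18.0%) and 591 of 5112 protein-coding genes (11.6%). In the left-out families 4 of 17 genes held them (23.5%). The share over all increased protein-coding genes was not computed, and whether these shares differ was not tested. The letters TGACGT, the core of the cyclic AMP response element, occurred in 1 of the 22, 3 of the 139 and 302 of the 5112 (5.91%). A match is a description of the letters and not a bound site. The 4 windows of 250 bases below run up to the base before the gene start. SPOM_SPCC794.04C is shown because its region holds the start, and the others, chosen after their values were seen, because they hold the motif and have the highest 24 h levels of the other increased genes that do. They lie at chrIII:250195-250444 (minus strand), chrI:3312680-3312929 (minus), chrI:5434788-5435037 (minus) and chrIII:2076617-2076866 (plus), in the order given. Capitals mark CTTATC, the reverse complement of GATAAG, which begins 31, 75, 107 and 49 bases before the 4 starts in the same order.
SPOM_SPCC794.04C: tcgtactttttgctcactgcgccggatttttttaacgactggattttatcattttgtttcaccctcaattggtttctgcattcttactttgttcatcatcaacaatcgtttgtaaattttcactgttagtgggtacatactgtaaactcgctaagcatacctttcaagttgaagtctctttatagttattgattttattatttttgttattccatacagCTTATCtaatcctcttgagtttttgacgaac
SPOM_SPAPB1E7.08C: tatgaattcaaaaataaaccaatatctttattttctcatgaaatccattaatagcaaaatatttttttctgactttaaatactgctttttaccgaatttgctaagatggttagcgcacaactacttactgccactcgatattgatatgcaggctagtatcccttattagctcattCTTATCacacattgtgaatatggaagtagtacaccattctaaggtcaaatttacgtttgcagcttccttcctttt
pgt1: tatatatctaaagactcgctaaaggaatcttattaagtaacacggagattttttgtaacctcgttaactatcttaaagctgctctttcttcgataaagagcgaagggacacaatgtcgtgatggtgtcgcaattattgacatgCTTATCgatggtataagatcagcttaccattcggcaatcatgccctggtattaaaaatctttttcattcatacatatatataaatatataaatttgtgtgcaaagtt
SPOM_SPCPB1C11.03: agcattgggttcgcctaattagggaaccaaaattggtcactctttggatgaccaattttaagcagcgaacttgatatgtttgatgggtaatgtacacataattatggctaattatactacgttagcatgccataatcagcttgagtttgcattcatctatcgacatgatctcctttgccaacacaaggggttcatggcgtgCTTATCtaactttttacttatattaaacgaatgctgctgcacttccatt

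Several increased genes lie near other transporter genes. On chromosome III, 5 of them within 237269 to 280999 included 3 increased ones, SPOM_SPCC1529.01, SPOM_SPCC794.03 and SPOM_SPCC794.04C, each under a region of its own. SPOM_SPCC794.06, annotated for malic acid, lay in the same group and had 4.89 normalised reads at 24 h and 13.3 at 0 h in the authors' deposited table, where its p was 1. On chromosome II, of the 4 polyamine transporter genes within 828602 to 845562, mfs3 was increased, SPOM_SPBC36.01C was tested and did not pass (FDR = 0.861), SPOM_SPBC530.15C had a p of 1 and SPOM_SPBC36.02C had no region. On chromosome I, put4 and sul2 lay among 5 transporter genes within 5482879 to 5514865, with put4 at least 24.6-fold higher at 24 h and sul2 with the lower 24 h value given above. These 5 genes spanned 32.0 kb. The identical copies SPOM_SPBPB10D8.04C, SPOM_SPBPB10D8.05C, SPOM_SPBPB10D8.06C and SPOM_SPBPB10D8.07C on chromosome II had a region over the last of them only, with a p of 1, and their reads are uncertain in the same way as those of the copies near the chromosome ends.

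The families left out were listed with earlier results of these data known, so their share is a description only. Of their 17 genes, 10 lay under increased regions, beside the same background of 10.5%. By 24 h normalised reads of the region, they were led in the authors' deposited table by amt1, an ammonium transporter gene, with 142 normalised reads, pho84 with 125, isp4 with 105, pho842 with 97.6, ght8 with 68.8 and str3 with 43.2, all at the minimum at 0 h. Among 49 other genes whose text names a permease, carrier, antiporter, symporter, exchanger, uniporter or channel, 10 were increased. That word list also took 5 acyl-carrier-protein enzymes, none of them increased, and 5 ght genes, 2 of them increased. By the authors' deposited table its increased regions with the most 24 h reads had 49.3 normalised reads at anc1, the mitochondrial ADP and ATP exchanger gene, 43.6 at mae1, for malate, 38.2 at nrg1, an amino acid permease gene, 30.8 at ght2, 25.9 at por1, the mitochondrial anion channel gene, and 18.6 at sut1, for sucrose and maltose.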

How the data were processed

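Per the submitters' processing notes, Bowtie2 2.2.7, MACS2 2.1, DiffBind 1.16.3 and DESeq2 were used with build ASM294v2; the sources used here do not give their roles, order or filters, or whether input reads were subtracted, on which the meaning of the table minimum, the lower bounds and the counts of libraries without signal depends. The authors deposited, per the file headers, log2 mean normalised reads per region for each time, a log2 fold as 0 h minus 24 h (turned here to 24 h minus 0 h), a p-value and an FDR. These columns hold group means, so the planned use of the authors' FDR, at a threshold of 0.05, was kept, and no SD stands beside the values. The depth per library is unknown, so no interval is given.

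Regions, counted from 1, were joined to RefSeq genes (ASM294v3, whose nuclear chromosome lengths equal the last region ends) by an overlap of at least 1 bp; 5 regions on other contigs were left out. Recovered values rest on 5 libraries per group and a limit of 600 normalised reads: 2175 of 2192 regions at 24 h and 2177 at 0 h were resolved, against 0 of 2029 and 1026 shifted values. The search was also run on simulated data with signal in 3 libraries at 24 h and 2 at 0 h. That number was fixed in advance, so the simulation cannot show whether further libraries held signal. Regions above the limit were not decomposed. limma 3.58.1 (R 4.3.3) was fitted to log2(value + 1), with the Benjamini-Hochberg adjustment. Copies were sought with blastn 2.17.0.

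The genes named are every increased or decreased one, up to 2 tested genes per class that did not pass, those of the highest 0 h levels, and up to 6 of each other list by 24 h level; others were chosen after their values were seen. Members, classes and lists were chosen with earlier results of these data known. Substrate classes were read from the product text by ordered key words. Protein sequences were not used here. The alternatives tried were other overlaps, extended genes, other FDR thresholds and adjustments, other scalings, floors and left-out libraries.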

Additional observations from a re-analysis of the deposited data

Results flagged for a closer look

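For the increased and decreased transporter genes, the gap between an extreme library and its nearest neighbour was divided by the range over the 5 libraries of a group and set against Dixon's critical value of 0.71. Of 27 groups 9 lay above it, where chance alone gives about 1 in 20, and most libraries of a group stand at the same minimum, for which the critical value was not made. At 24 h the highest library, A, stood apart at SPOM_SPAC6F6.04C (ratio 1.0), sul1 (0.887), SPOM_SPCC285.05 (0.864), gti1 (0.818), SPOM_SPCC1529.01 (0.756) and SPOM_SPBC1271.10C (0.720). At 0 h the only library with signal stood apart at SPOM_SPAPB1E7.08C, SPOM_SPBC1652.02 and SPOM_SPBC1271.10C (each 1.0). Without library A the lowest 24 h minus 0 h log2 change of the 22 increased genes was 1.39. These genes were called from the same libraries as higher at 24 h. For the 19 of them at the 0 h minimum, leaving out 1 library could not turn the direction, so that value is no check on the calls.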

How the results depend on the processing

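The count of 22 increased transporter genes lay between 16 and 27 with at least 50% of the gene or of the region required to overlap, with gene bodies extended by 500 bp, at an FDR of 0.01 or 0.1, with regions over no other gene only, and with the adjustment over all regions. It was 0 in limma on recovered values, chosen after seeing the data, as were the counts of the left-out families and the other transport proteins. None of the 2174 regions fitted in the whole table passed there, so these counts of 0 show nothing particular to the 3 lists. The count of the other transport proteins was 5 at an FDR of 0.01. The decreased count was 2 at an FDR of 0.1 and 0 with at least 50% of the gene covered. The median log2 change of 2.14 became 2.68 at equal totals, 0.42 at equal medians of tested regions, 1.69 with minima raised to 3 counts per library and 3.10 with regions of a p of 1 included. Leaving out 1 library at a time, 30 to 47 of 52 tested regions were higher at 24 h, against 42 with all. Increased genes fell into 8 of 12 substrate classes, or 2 of 5 protein families. Causes of these differences were not tested beyond what each alternative's construction shows. No paired analysis was possible because the deposited table holds group means, and the recovered values cannot be tied to replicate numbers. Regions near the minimum, about 1 read in each library, are the least precise, and the values of single libraries rest on the 5 libraries assumed.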
